A study of Mus musculus with 4 samples.

Results

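Germline and meiosis genes are needed to make eggs and sperm and are silent in nearly all other tissues. Here 40 such genes, all protein-coding, were examined for lower capture of methylated DNA in cultured muscle stem cells after tamoxifen. They were chosen by name for their role in germ cells, with earlier results of these data known. Their regions are those of the deposited list that overlap the gene body (RefSeq, GRCm38.p6) or 2000 bp beyond either end. By this rule 23 of the 40 genes carried 40 of the 39231 listed regions, and 17 genes carried none.

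The libraries came from satellite cells, the stem cells of skeletal muscle, taken from hindlimb muscles of 9-week-old mice and cultured for 3 days on Matrigel. Mice given tamoxifen to induce Cre recombination at Uhrf1 (150 µl of 20 mg/ml on 5 consecutive days) were compared with mice labelled oil, and sheared DNA was split by an MBD2-based kit into methylated and non-methylated parts. This gave 4 groups of 1 library, oil or tamoxifen by DNA part. The promoter that drives Cre, the strain, the alleles carried by the oil mice and the number of mice in each library are not given in the sources used here. With 1 library in a group no test of the treatment could be made, and Uhrf1 deletion, tamoxifen, mouse, culture and capture cannot be told apart. DNA libraries hold no expression, so the cell type was not checked against marker genes.

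In somatic cells many germline genes are held silent by methylation of CpG-rich start regions, which makes them unlike most CpG-rich promoters, where CpGs are unmethylated. A complex of MGA, MAX, E2F6, PCGF6 and L3MBTL2 (PRC1.6) marks many of these promoters in the early embryo, and the mark is followed by methylation. Uhrf1 brings the maintenance methyltransferase Dnmt1 to replicated DNA, so germline promoters are a known place to look when it is removed.

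All regions in the list are ones where the oil library was higher. The header names the alignments as oil and tamoxifen and not by DNA part, and they are read here as the methylated part. Before removal of repeated positions there were 35216008 tags for oil and 36519772 for tamoxifen, with redundant rates of 0.45 and 0.30. After removal 19534328 tags were left for oil and 25614791 for tamoxifen. Tags below are extended tags over a region's summit, unscaled. The fold is the authors' value, oil over tamoxifen after the latter was scaled by 0.763, with 1 added to each. The share kept is the scaled tamoxifen tags as a percent of the oil tags, and its limits are exact (Clopper-Pearson) 95% limits that cover counting error only. The list is cut off at a q value of 1e-04, so a weak fold is seen only where oil tags were many. Regions with 20 to 29 oil tags had folds of at least 2.66, while those with 100 to 149 went down to 1.56.

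The count over whole genes was close to that of genes of like length. The 23 members with a region are 57.5% of 40, against 45.2% of 21887 protein-coding genes. The members are longer than most (median 39390 bp against 17169 bp), and protein-coding genes of the same length deciles carried a region in 56.9% of cases. Members with a region had a median length of 58098 bp and those without one 17224 bp. Regions overlapping the 2000 bp on either side of a gene end were found at 12 members (30%), against 18.4% of protein-coding genes and 19.6% in the same length deciles. The other 11 members had regions only further inside. In bulk DNA a change in the mix of cells and a change per cell cannot be told apart.

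Gene ends were then split into starts and far ends with the RefSeq promoter table, which lists a start and strand for 34 of the 40 genes (not Spo11, Tex11, Tex15, Dmrt1, Tdrd6 and Piwil2). The share of members with a region close to a start was above the background. Members were chosen with earlier results of these data known, so this share is a description and no independent finding. A region lay within 500 bp of a listed start in 8 of 34 members (23.5%), against 345 of 17492 protein-coding genes (1.97%). These were Sycp3, Smc1b, Stag3, Tex14, Mov10l1, Taf7l, Stra8 and Dmrtb1. Within 2000 bp the counts were 10 of 34 (29.4%), with Sycp1 and Tdrd1 added, against 8.32%. Between 501 and 1000 bp from a start the shares were 2.94% (1 of 34 members) and 1.98%. Between 1001 and 2000 bp they were 2.94% (1 of 34) and 4.92%, and between 2001 and 5000 bp 8.82% (3 of 34) and 13.7%. The members exceeded all protein-coding genes, which include them, mainly in the nearest 500 bp. Their counts further out are too small to describe a profile.

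**Figure D1:**
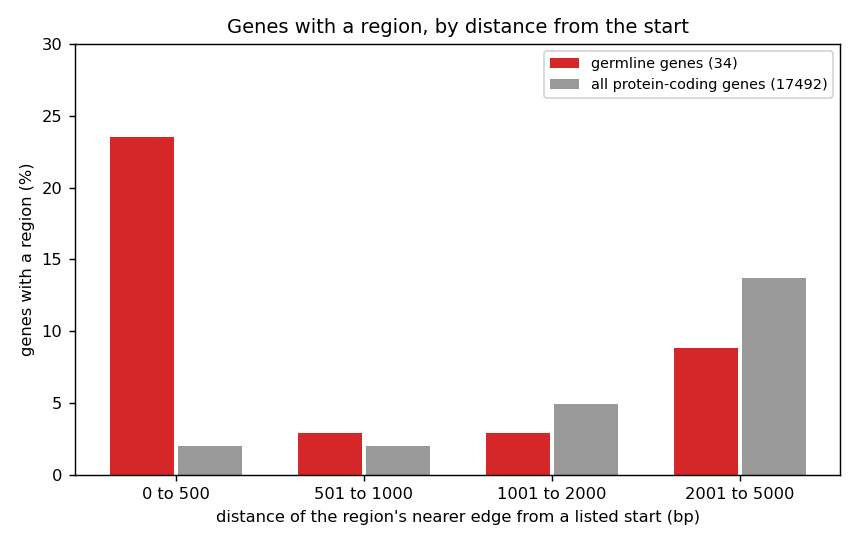
Percent of genes with a listed region, by the distance in bp from the region's nearer edge to the nearest listed start, for 34 germline genes (red) and 17492 protein-coding genes (grey). Within 500 bp the germline bar stands at 23.5% and the grey bar at 1.97%, and beyond 1000 bp the grey bars are the higher ones.

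Promoters of members with a region at the start are printed beside promoters of members without one, as examples. Each line gives the 250 bases before a listed start in GRCm38.p6, from RefSeq, 5′ to 3′ on the gene's own strand, with every CpG in capitals. Sycp3 lies at chr10:88459337-88459586 on the plus strand, Smc1b at chr15:85131958-85132207 on the minus strand, Mov10l1 at chr15:88982744-88982993 on the plus strand, Taf7l at chrX:134476491-134476740 on the minus strand and Dmrtb1 at chr4:107684231-107684480 on the minus strand. Dazl, at chr17:50293621-50293870 on the minus strand, and Ddx4, at chr13:112652311-112652560 on the minus strand, had no region.
Sycp3: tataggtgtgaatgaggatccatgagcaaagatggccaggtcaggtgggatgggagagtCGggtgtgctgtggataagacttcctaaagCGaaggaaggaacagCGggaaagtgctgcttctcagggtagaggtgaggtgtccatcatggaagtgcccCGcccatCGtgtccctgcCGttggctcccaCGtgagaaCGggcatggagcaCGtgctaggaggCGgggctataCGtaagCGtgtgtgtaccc
Smc1b: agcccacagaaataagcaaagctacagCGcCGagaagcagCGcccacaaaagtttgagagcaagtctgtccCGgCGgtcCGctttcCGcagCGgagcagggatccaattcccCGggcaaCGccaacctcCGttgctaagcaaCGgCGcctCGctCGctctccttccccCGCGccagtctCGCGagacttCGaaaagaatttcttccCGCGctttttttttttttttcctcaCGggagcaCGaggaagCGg
Mov10l1: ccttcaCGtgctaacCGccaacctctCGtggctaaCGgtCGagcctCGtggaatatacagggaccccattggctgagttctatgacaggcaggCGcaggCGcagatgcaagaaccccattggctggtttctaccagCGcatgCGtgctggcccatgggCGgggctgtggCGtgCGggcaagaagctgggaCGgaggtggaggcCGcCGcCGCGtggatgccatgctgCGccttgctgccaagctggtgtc
Taf7l: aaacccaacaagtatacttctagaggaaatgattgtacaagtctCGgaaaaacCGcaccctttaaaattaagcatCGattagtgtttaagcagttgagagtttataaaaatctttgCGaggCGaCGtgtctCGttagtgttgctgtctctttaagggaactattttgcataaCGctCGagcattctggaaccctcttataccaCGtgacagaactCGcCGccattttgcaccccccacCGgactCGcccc
Dmrtb1: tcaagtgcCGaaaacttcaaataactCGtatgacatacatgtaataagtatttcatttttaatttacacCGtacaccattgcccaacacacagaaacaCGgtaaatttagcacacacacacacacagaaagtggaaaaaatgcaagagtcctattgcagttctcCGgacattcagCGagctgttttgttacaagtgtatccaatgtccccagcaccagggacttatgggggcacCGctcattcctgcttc
Dazl: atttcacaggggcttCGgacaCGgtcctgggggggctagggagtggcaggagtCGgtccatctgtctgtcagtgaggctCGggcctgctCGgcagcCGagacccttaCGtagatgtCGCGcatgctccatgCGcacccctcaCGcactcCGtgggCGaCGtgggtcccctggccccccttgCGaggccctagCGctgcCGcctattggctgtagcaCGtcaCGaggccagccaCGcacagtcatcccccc
Ddx4: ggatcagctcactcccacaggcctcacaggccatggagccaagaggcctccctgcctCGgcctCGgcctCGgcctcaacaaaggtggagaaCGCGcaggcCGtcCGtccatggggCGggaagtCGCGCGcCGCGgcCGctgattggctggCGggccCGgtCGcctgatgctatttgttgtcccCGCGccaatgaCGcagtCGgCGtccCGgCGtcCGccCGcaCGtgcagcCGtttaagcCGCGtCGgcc

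The listed regions covered 204 of these bases in Sycp3 with all 12 of its CpGs, 100 bases in Smc1b with 12 of 25 CpGs, 187 bases in Mov10l1 with 13 of 19, 177 bases in Taf7l with 9 of 14, and 228 bases in Dmrtb1 with 6 of 7. The printed stretches of Dazl and Ddx4 hold 20 and 31 CpGs and no part of a region. Over the full 300 bp windows (250 bases before to 50 after the start) the 34 members had a median of 18 CpGs, from 3 in Nanos3 to 48 in Tdrd5, against a median of 13 over all 17492 genes. The medians were 19.2 in the 8 members with a region within 500 bp and 18 in the other 26, so the groups overlapped in CpG number. Dazl and Ddx4, which are among the 26, had 28 and 38 CpGs in these windows, above the median of 18. Among protein-coding genes at large, those with such a region had CpG-poor windows, with a median of 9. In windows of 20 or more CpGs, 54 of 6202 genes (0.871%) had a region within 500 bp of the start, and 4 of these 54 were members (Stag3, Smc1b, Mov10l1 and Tex14), out of 14 members in that class. In windows of 10 to under 20 CpGs the counts were 108 of 3945 genes (2.74%) and 4 of 18 members. These classes were set after the data were seen.

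**Figure D2:**
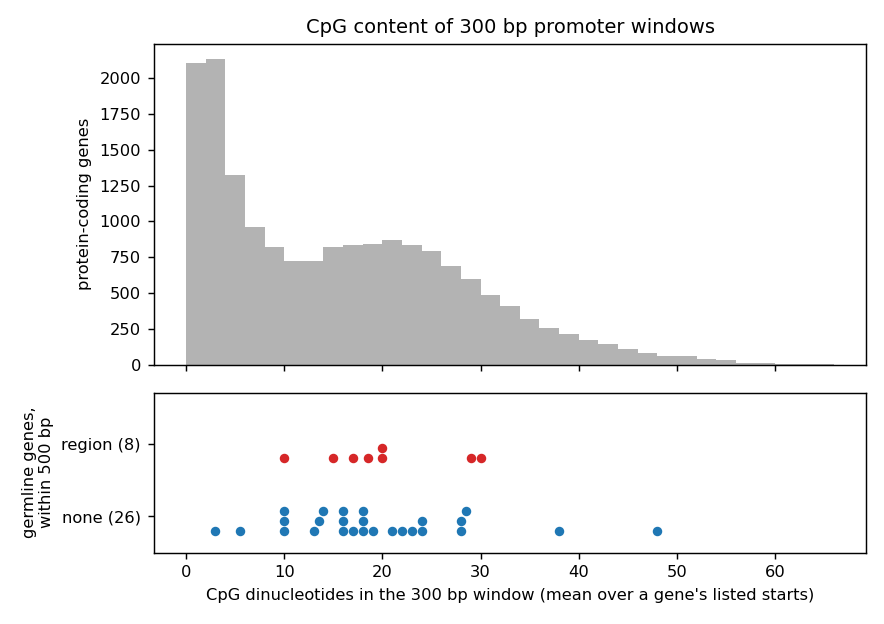
CpG dinucleotides in the 300 bp promoter window (mean over a gene's listed starts) for all protein-coding genes as a histogram (upper panel) and for each germline gene as a point (lower panel), split by whether a region lay within 500 bp of a start. The 8 points with a region lie between 10 and 30, inside the spread of 3 to 48 of the 26 points without one.

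The windows were also searched on both strands for CACGTG, the E-box bound by MGA and MAX, and for TCCCGC, the core of the E2F6 site, which reads GCGGGA on the opposite strand. The E-box is its own reverse complement, and each motif holds a CpG. CACGTG was present in 14 of 34 members (41.2%) and in 8.91% of the 17492 protein-coding genes. TCCCGC was present in 16 (47.1%), against 28.4%, and both in 7 (20.6%), against 3.1%. Windows of members also held more CpGs (median 18 against 13), and the part of CpG number in these shares was not tested. The members with both were Sycp1, Sycp3, Hormad1, Stag3, Ddx4, Mael and Slc25a31, of which Sycp3 and Stag3 had a region within 500 bp. CACGTG was found in 4 of the 8 members with such a region and in 10 of the 26 without. A match of letters is a description of the window and no evidence of binding in these cells.

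Most of the member regions at listed starts fell less than other regions of the list. The 10 member regions within 2000 bp of a start had a median fold of 2.76, so that the median share of signal kept was 35.6%. In the 21 member regions further from a start the median fold was 4.58. These 21 include the region of Dmrtb1 near the annotated right end of its gene (fold 6.67), 17631 bp from the nearest listed start. The 9 regions of members with no listed start (median fold 4.94) are in neither group. Among them are those of Tex11 near its right end (folds 9.16 and 7.06), which may or may not be a start. The contrast therefore holds for listed starts only. Regions within 2000 bp of any protein-coding start had a median fold of 4.71 (1510 regions), and those within 500 bp had 4.57 (343 regions). Both were close to the 4.61 of the whole list. Of the 10, 6 were among the lowest 10% of all listed folds (Sycp3, Stra8, Sycp1, Stag3, Smc1b and Tex14), and 1 of the 21 others was. Oil tags were also more numerous there, with a median of 87 against 57 in the 21 others, and weak folds pass the cutoff only where oil tags are many. The 4 with 100 or more oil tags had folds of 2.12 to 2.69, against a median of 3.68 in the 51 regions of that depth within 500 bp of protein-coding starts (quartiles 2.79 and 4.62). Of the 4, those of Sycp3, Stag3 and Smc1b are themselves among the 51, and that of Sycp1 lay 641 bp from its start. This comparison of folds at starts was chosen after the data were seen. No test was made, since regions of 1 library pair are not replicates.

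**Figure D3:**
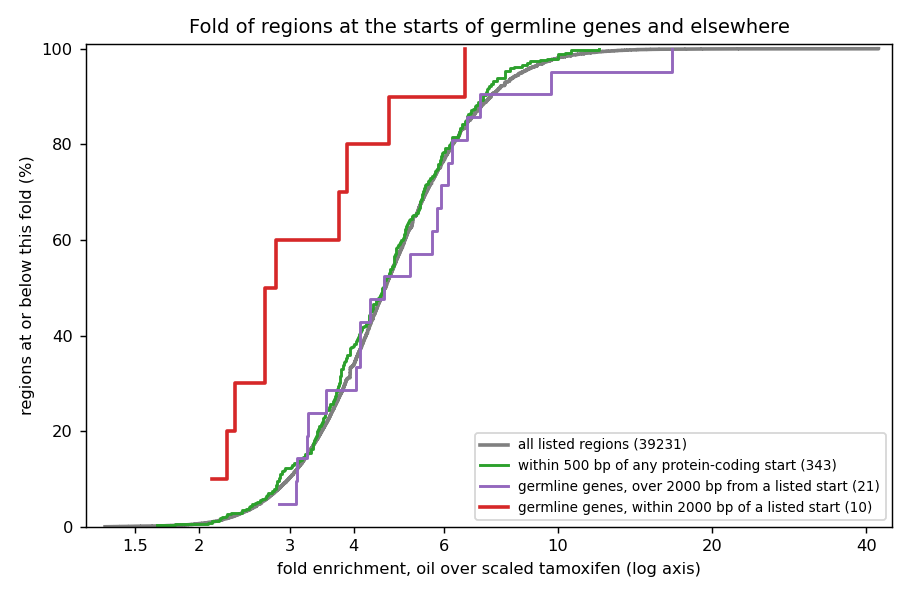
Cumulative percent of regions at or below a given fold (oil over scaled tamoxifen, log axis) for all 39231 regions, the 343 within 500 bp of a protein-coding start, and the germline gene regions further than 2000 bp from a listed start (21) or within it (10). The red line of the 10 start regions lies to the left of the others and ends at 6.59, while the other 3 lines cross each other over most of the range.

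By role the members form groups of 3 to 14 genes, too few to set their shares against the 45.2% of protein-coding genes. The groups were not matched for length. Among genes of the chromosome axis and synaptonemal complex, the structures that hold homologous chromosomes together in meiosis, 3 of 6 carried regions. Sycp3, which encodes an axial element protein, had a single region of 842 bp (chromosome 10, 88459383 to 88460224) that covered its start. It held 132 oil and 81 tamoxifen tags, a fold of 2.12, and kept 46.8% of the signal (limits 35% to 62.2%). This was the lowest fold of any member region, at the 1.01 percentile of the whole list. Sycp1 encodes the transverse filament that bridges paired chromosomes. Its region beginning 641 bp inside the start (chromosome 3, 102935119 to 102935459) was the best covered of all member regions, with 197 oil and 109 tamoxifen tags, and kept 42.2% (limits 33.1% to 53.6%). In the same gene, 103482 bp from the start, a region (102832510 to 102832713) with 105 oil and 7 tamoxifen tags kept only 5.08% (limits 2% to 10.8%), a fold of 16.72 and the highest of any member. The limits of these 2 regions of Sycp1 do not overlap. The remaining region of Sycp1 inside the gene had 47 and 19 tags (fold 3.10). It kept 30.8% (limits 17.1% to 53.5%), which overlap those at the start. The limits at the start were thus apart from those of 1 of the 2 interior regions. That region has the highest fold of any member, and the limits are not adjusted for picking it. Hormad2, a checkpoint protein of unsynapsed axes, had 1 region inside the gene with 48 and 10 tags (fold 5.68). Sycp2, Syce1 and Hormad1, other axis and central element genes, had none.

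Both cohesin genes with a region had it at the start, and with nearly equal folds. Cohesin rings hold sister chromatids together, and Stag3, Rec8 and Smc1b encode subunits special to meiosis. Stag3 (chromosome 5, 138280579 to 138280938) held 174 tags in oil and 84 in tamoxifen, a fold of 2.69 with 36.8% kept (limits 28% to 48%). Its listed start lies 7995 bp inside the annotated gene, so that by gene ends alone this region counts as inside. Smc1b (chromosome 15, 85131837 to 85132057) had 125 and 60 tags, again a fold of 2.69, with 36.6% kept (limits 26.4% to 50.2%). These summits lie within 2000 bp of the starts of neighbouring genes, Gpc2 for Stag3 and Ribc2 for Smc1b, so the regions cannot be assigned to 1 gene of each pair. Rec8 had no region.

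Of 6 genes of germ cell specification and entry into meiosis, Stra8, Dmrtb1 and Dmrt1 carried regions. Stra8, which retinoic acid induces at the onset of meiosis, had a region over its start (chromosome 6, 34920944 to 34921388) with 48 oil and 27 tamoxifen tags. It kept 42.9% (limits 25.7% to 70.1%) at a fold of 2.27, and it was lost at a q limit of 1e-06 and with unscaled tamoxifen tags (fold 1.75). Dmrtb1, a DM-domain factor of the switch from spermatogonia to meiosis, had the highest fold among the start regions. Only this region and that of Tdrd1 lay above the median fold of the list. The region of Dmrtb1 at the more upstream of its listed starts (chromosome 4, 107684253 to 107684669) fell from 86 to 16 tags, a fold of 6.59 with 14.2% kept (limits 7.76% to 24.4%). Its other regions were 1 of 4.11-fold inside the gene and 1 of 6.67-fold (26 against 4 tags) near the right end, 17631 bp upstream of that start and inside the lncRNA gene 1700047F07Rik. Dmrt1, a related regulator of testis identity, had 4 regions, all inside the gene, with folds of 3.86 to 5.74 and from 31 oil and 6 tamoxifen tags to 100 and 33. Dazl, an RNA-binding protein that licenses germ cell fate, Nanos3, needed for survival of primordial germ cells, and Meioc, needed to stay in meiotic prophase, had none.

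Of 5 genes of meiotic recombination, only Tex11, an X-linked gene of crossover formation, had regions. Both lay near its right end (chromosome X, 101058862 to 101059201 and 101060196 to 101060410). The first held 99 tags in oil and 13 in tamoxifen, a fold of 9.16 with 10% kept (limits 5.15% to 17.9%), and the second 33 and 5 tags, a fold of 7.06. Regions are sparse on this chromosome, where 16.1% of 966 protein-coding genes carried one. Spo11, which makes the meiotic double-strand breaks, Dmc1, the meiotic strand exchange protein, Prdm9, which places the breaks, and Tex15 had none.

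The piRNA pathway, which uses small RNAs bound by PIWI proteins to silence transposons in germ cells, had regions in 10 of 14 genes. Most lay inside the gene. The RNA helicase gene Mov10l1 had a region 64 bp before its listed start (chromosome 15, 88982659 to 88982930) with 57 oil and 19 tamoxifen tags, a fold of 3.74 with 25.4% kept (limits 14.3% to 43.4%). The region also lies in the annotated body of Mlc1. A second one inside Mov10l1 kept more, 34.6% (limits 26.2% to 45.4%, 174 against 79 tags), with limits that overlap those at the start. Tdrd1, a Tudor-domain scaffold of germ granules, had a region 1525 bp before the third of its listed starts (61 against 16 tags, fold 4.70). The region of Tdrd12 with 71 and 17 tags (chromosome 7, 35465247 to 35465499, fold 5.16) lay 1442 bp beyond the far end of the gene, within the neighbour Slc7a9. Piwil4, the nuclear PIWI protein that directs methylation of transposons, had a region of 23 and 6 tags at its far end (chromosome 9, 14702231 to 14702455, fold 4.30) and 1 of 119 and 37 tags inside (fold 4.11). Stk31 (fold 5.82, 67 against 14 tags) and Tdrd9 (folds 4.58 and 5.93, the latter with 23 against 4) carried regions inside the gene. So did Piwil2 (folds 4.0 and 4.94), Tdrd6 (3.82), Tdrd5 (3.24 and 3.53) and Asz1 (3.09). Ddx4, the germ cell helicase Vasa, Mael, Piwil1, a PIWI protein of later spermatogenesis, and Tex19.1 had none.

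Among the 6 remaining genes, 4 carried regions, 2 of them at starts. Taf7l, an X-linked TFIID subunit of spermatogenesis, had a region just before its start (chromosome X, 134476564 to 134476804) with 65 oil and 21 tamoxifen tags, a fold of 3.88 with 24.6% kept (limits 14.3% to 40.8%). Tex14, needed for the bridges between dividing germ cells, showed both kinds. Its start region (chromosome 11, 87405211 to 87405803) had 88 and 40 tags and kept 34.7% (limits 23.2% to 50.9%), and the start of Rad51c lies within 2000 bp of that summit. A region 47686 bp from the start (87452625 to 87452882) fell from 68 to 8 tags and kept 8.97% (limits 3.72% to 18.7%), so the limits do not overlap. Its other interior regions had folds of 6.21 (62 against 12 tags) and 3.26 (57 against 22). They kept 14.8% (limits 7.24% to 27.7%) and 29.4% (limits 17.1% to 48.9%), and both overlap the limits at the start. Only the interior region with 8 tamoxifen tags had limits apart from those at the start. The testis bromodomain gene Brdt had 2 regions inside, of 6.10-fold (33 against 6 tags) and 4.04-fold (80 against 25). The region of Tex101, a sperm membrane protein gene (chromosome 7, 24666467 to 24666721, 33 against 5 tags, fold 7.06), lay 1291 bp beyond the far end and not at the start. Slc25a31, the testis ADP/ATP carrier, and Rpl10l, a retrogene copy of a ribosomal protein gene, had none.

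**Figure D4:**
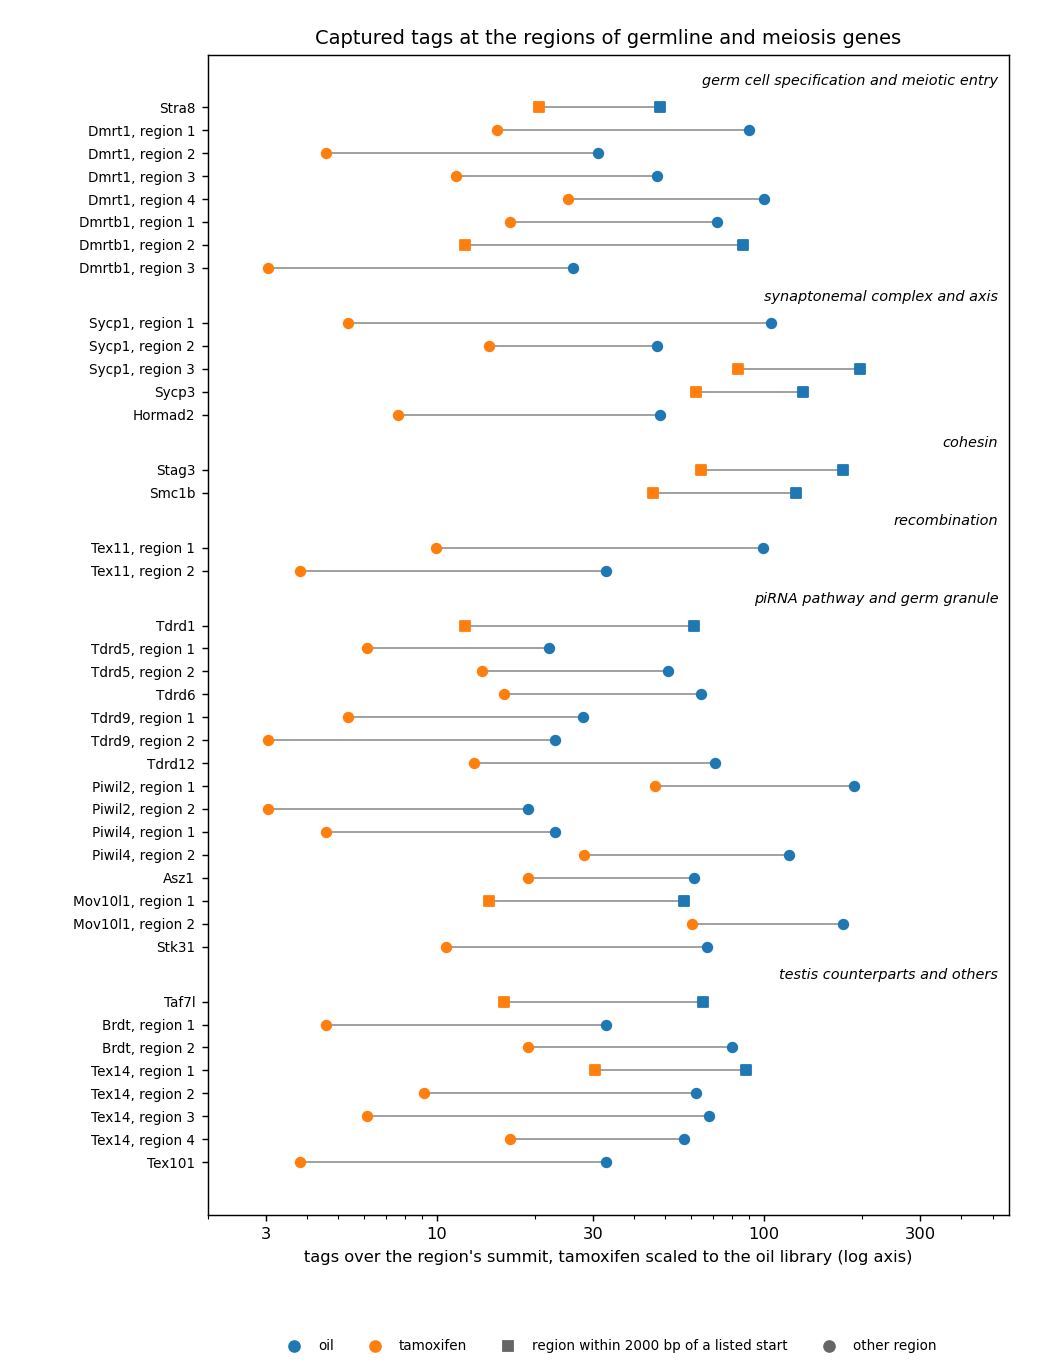
Oil tags (blue) and scaled tamoxifen tags (orange) over the summit of each of the 40 regions on a log axis, grouped by the role of the gene, with squares for regions within 2000 bp of a listed start and regions of a gene in order of position. Tamoxifen lies below oil in each of them, as the list requires, and the shortest lines are those of Sycp3, Stra8 and Sycp1 region 3, all squares.

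By gene ends, 7 of the 13 regions near an end lay at a listed start, 3 lay at the far end (Tdrd12, Piwil4 and Tex101), 2 belonged to Tex11 with no listed start, and 1 was the outer region of Dmrtb1. A further 3 regions counted as inside lay at a listed start (Stag3, Tdrd1 and Dmrtb1). The start regions had a median length of 350 bp, against 259 bp for the list. Listed regions with 100 or more oil tags had a median of 337 bp. Oil tags at the start regions had a median of 87, against 51 in the list, and the part of depth in their length was not tested. The summits of the start regions lay after the start in 5 and before it in 5.

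The 17 members with no region ranged in length from 1023 bp to 75815 bp, and 15 of them have a listed start. The list does not tell whether their starts were unmethylated in both cultures, methylated and unchanged, higher after tamoxifen or too thinly covered.

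Other germline genes, a list of 39 that overlaps none of the members, were counted in the same way. Most are genes of meiosis and the piRNA pathway, and the list also holds regulators of germ cells such as Figla, Dnd1, Nanos2, Sohlh1 and Zbtb16. This list too was chosen with earlier results of these data known. The median length of these 39 genes was 35465 bp, against 17169 bp for protein-coding genes, and the part of length in the counts was not tested. Regions were found over 20 of the 39 (51.3%, against 45.2% of protein-coding genes) and near an end in 11 (28.2%, against 18.4%). Within 500 bp of a listed start they were found in 4 of 31 (12.9%, against 1.97% of protein-coding genes), namely Tex12, Figla, Fkbp6 and Rnf212. The synaptonemal complex gene Tex12 fell from 68 to 18 tags there (fold 4.69), the oocyte transcription factor gene Figla from 52 to 18 (fold 3.60) and the crossover gene Rnf212 from 30 to 13 (fold 2.84). Fkbp6, a piRNA pathway gene named because it completes that count of 4, fell from 72 to 32 (fold 2.87). Regions near an end but further from a listed start were at Tdrd7 (highest fold 5.21), Mei1 (3.17) and Henmt1 (2.95). Rnf17 (4.64), Pnldc1 (4.17), Dnd1 (4.13) and Majin (3.60) also had regions near an end, and no start was listed for them. Zcwpw1, named after its values were seen because it completes the 11, had 197 oil and 119 tamoxifen tags with a summit 707 bp after its start (fold 2.16). The median fold over the 41 regions of this list was 3.82, below the 4.61 of all regions, as was the 4.11 of the 40 member regions.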

How the data were processed

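The submitters' processing notes name Trim Galore, HISAT2, MACS2 2.2.6 and mm10. The authors called regions with MACS 2.2.6, per the file headers, with oil as treatment and tamoxifen as control, at most 1 tag per position, tags extended to 201 bp, no regional background and a q cutoff of 1e-04. The deposited pileup is a signal value (oil tags over the summit) and the deposited fold enrichment a ratio. The deposited -log10 p and -log10 q columns had lost their headings and were read from their place in the file.

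Tamoxifen tags were recovered from pileup and fold and were whole within 0.02 tags in 97.5% of regions, all member regions included. Overlap of 1 bp counted. Starts came from the RefSeq promoter table of GRCm38.p6 (the primary sequence of mm10). Shares of protein-coding genes serve as background. Tag recovery, overlaps and limits were tested on simulated data (Python 3.11.15, pandas 2.3.3, scipy 1.17.1, matplotlib 3.10.9). Genes described in full were those with a region near an end or with 1 of the 10 highest folds, and start regions were added. Members and lists were chosen with earlier results of these data known. Alternative q limits, flanks, overlap rules and scalings were tried. The non-methylated libraries were not analysed here.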

Additional observations from a re-analysis of the deposited data

How the results depend on the processing

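Under q limits of 1e-06 and 1e-10, flanks of 1000 and 5000 bp, the midpoint rule and unscaled tags, the count of members with a region was 21 to 24 against 23 (20 with no flank) and that near a gene end 9 to 18 against 12. The count at a start was 9 to 10 against 10 under the same settings other than the flanks, which were not run for it, and 8 within 500 bp. All of these lie within 1.5 times of the reported counts. The counts of the other lists at a q limit of 1e-10 were 18 and 13. With unscaled tamoxifen tags the median fold was 3.17 over all member regions and 2.12 over start regions, since every fold is then lower by construction. The median fold at starts with all its alternatives, and the count at starts under settings other than 500 bp and a q limit of 1e-10, were chosen after seeing the data. At a q limit of 1e-10, 7 of 34 members and 1.66% of protein-coding genes had a region within 500 bp of a start. Stra8 was the 1 member lost at that limit. Regions with few oil tags show only strong folds, so weak losses there were not detectable. No paired analysis was possible because each group holds 1 library.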

Other observations

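The genes that encode the repressors of germline promoters were also counted. Of 17 such genes, 14 (82.4%) carried a region, against 45.2% of protein-coding genes, with 25 regions and a median fold of 4.55. Within 500 bp of a start there was none in the 14 genes with a listed start, a number too small to differ from the 1.97% of protein-coding genes, and E2f6 had a region within 2000 bp of its start. Near a gene end, regions were found at Rybp (5.01-fold, 46 against 11 tags), Yaf2 (4.73-fold, 47 against 12), Hdac1 (4.23-fold, 87 against 26), E2f6 (3.76-fold, 40 against 13, and 3.05-fold), Ring1 (3.36-fold, 28 against 10) and Mga (3.26-fold, 52 against 20). The median length of these genes was 26543 bp, above the 17169 bp of protein-coding genes, and the part of length in this count was not tested.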
